A study of Glycine max with 4 samples.

Results

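The subject here is a set of 622 start regions of soybean (Glycine max, cultivar Williams 82) at which transcription started mainly in the shoot and to a small extent in the root. They were drawn from 23330 merged start regions, made by joining deposited root and shoot tag clusters of the same strand that lay at most 100 bp apart. A region was kept when its pooled shoot level was 20 TPM or more, its pooled root level was above 0 and the shoot level was at least 10 times the root level. TPM, in the deposited table, is a level per tissue that is close to proportional to the number of sequenced tags, here 0.329 TPM per shoot tag and 0.286 TPM per root tag. The regions were thus chosen by their pooled shoot and root levels, which are given below as a description with no test.

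Shoots and roots were harvested separately from 2-week-old seedlings of 1 genotype, kept at a white light intensity of 300 µmol per square metre per second for 12 h of each day. Each tissue had 2 nanoCAGE libraries made from 1 µg of total RNA, numbered 1 and 2. The labels do not say that the libraries came from separate plants, so p-values measure only the spread between these libraries, which may be technical. No mutant, treatment or transgene was part of the comparison, and shoots and roots each hold many cell types. In such bulk samples, fewer cells of a type and less RNA per cell cannot be told apart.

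NanoCAGE is designed to read the 5′ end of capped RNA, so each tag is taken here as the base at which a transcript began. Whether every tag came from a capped end was not tested. Plant promoters range from sharp ones, where a single base takes most starts, to broad ones that spread starts over many bases, and a gene may have more than 1 promoter. In green tissue a few nuclear gene families of photosynthesis, such as those for the small subunit of Rubisco and for chlorophyll a/b-binding proteins, are known to give very abundant mRNA, and their light-driven expression is low in roots. The positions carry no gene names here, because no annotation of the assembly in the files was used, so no region below is assigned to such a family. For the same reason no promoter sequence is shown.

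The count table, which covers sequences 1 to 12 and part of sequence 13, held 901261 and 655935 tags in shoot libraries 1 and 2 and 1000476 and 874004 tags in root libraries 1 and 2. It covered 423 of the 622 regions. These 423 took 25.9% and 27.2% of all tags in the shoot libraries, against 0.407% and 0.34% in the root libraries. The other 199 regions have pooled levels alone, and their median shoot to root ratio of 47.3 lay close to the 49.4 of the covered regions. Over all 20 sequences the 622 regions, 2.67% of all merged regions, held 29.9% of the shoot TPM and 0.469% of the root TPM that lay inside regions.

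The share of shoot-dominant regions grew with the shoot level. They made up 10.03% of the regions with 20 to 50 shoot TPM, 15.9% of those with 50 to 200, 27.2% of those with 200 to 1000 and 53.2% of the 79 regions above 1000 TPM. Regions with no root tag at all went the other way, at 6.01%, 4.17% and 1.97% of the first 3 classes and 0 of the highest. Among regions with no root tag the highest shoot level was 404 TPM, while 42 shoot-dominant regions with root tags lay above 1000 TPM. Since 1 root tag is worth 0.286 TPM, root use below that level could not be seen. At the same ratio a weaker region more often has no root tag at all, so part of both trends is built in.

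**Figure D1:**
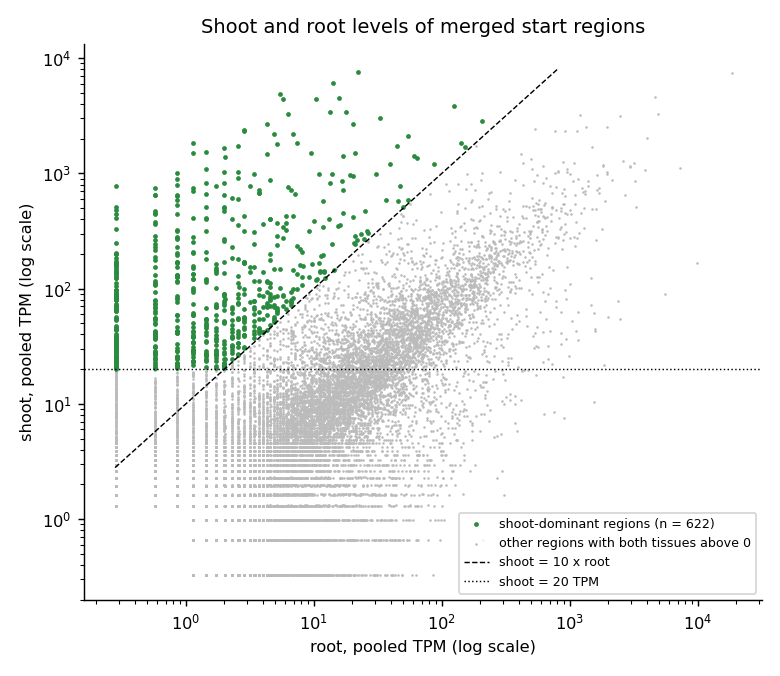
Pooled shoot level (vertical axis, TPM, log scale) against pooled root level (horizontal axis, TPM, log scale) of merged start regions with tags in both tissues. Green points are the 622 shoot-dominant regions, grey points the other regions, and the lines mark the limits of 20 shoot TPM and a ratio of 10. Columns of points at the left are regions with 1, 2 or a few root tags.

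The most used of these starts belonged to a small number of regions. Shoot levels ran from 20.03 to 7632 TPM with a median of 79.2, and root levels from 0.286 to 207 TPM with a median of 1.72. The 10 regions with the highest shoot level held 23.8% of the shoot TPM of all 622 and 7.48% of their root TPM, and the top 50 held 57.04% and 42.8%. The median ratio of shoot to root was 48.8, with 157 regions between 10 and 20, 159 between 20 and 50, 92 between 50 and 100, 161 between 100 and 500 and 53 above 500. The ratio rose with the shoot level, from a median of 28.8 in the class of 20 to 50 TPM through 44.0 and 180 to 345 above 1000 TPM. Part of this rise is built in, because a region needs at least 1 root tag and its ratio cannot exceed its shoot level divided by 0.286 TPM. The median root level rose as well over the same classes, by a smaller factor, from 1.14 TPM through 2.002 and 2.57 to 8.45 TPM.

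The first region by shoot level lay on sequence 5 plus strand at 34430489 to 34431349. It had 13161 and 11276 tags in the shoot libraries and 49 and 28 tags in the root libraries, or 19181 and 23578 CPM in shoot against 51.6 and 33.3 CPM in root. CPM are tag counts divided by library size, after scaling the libraries with the trimmed mean of M values (TMM). One base in this region took 78.3% of the pooled shoot tags and 84.4% of the pooled root tags, and it was the same base in both tissues. The second, on sequence 5 minus strand at 2014172 to 2015032, had 12450 and 6665 shoot tags against 28 and 21 root tags. Its shoot starts were spread more widely, with 25.4% on the main base. The third, on sequence 8 plus strand at 44710095 to 44710243, had 7832 and 7595 shoot tags against 9 and 10 root tags, a pooled ratio of 889 with a 95% exact counting interval of 569 to 1477. In each of these 3 regions the libraries of the tissues lay far apart.

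Among the 10 strongest, the region on sequence 3 plus strand at 1491276 to 1491371 stood apart by its root level. It had 6976 and 5195 tags in the shoot libraries and 278 and 154 in the root libraries, or 10515 ± 492 CPM in shoot against 238 ± 77.5 CPM in root (SD, n = 2 each). Its pooled ratio was 31.1, against 190 to 889 for the other 9. Those with counts lay on sequences 1, 7, 8 and 13 beside the 3 given above. On sequence 1 plus strand at 47966432 to 47966806 the tags were 7141 and 7005 in shoot against 8 and 12 in root. The region at 11558427 to 11558595 on the minus strand of sequence 7 had 7432 and 6513 tags in shoot against 20 and 16 in root. The remaining pair with counts, on sequence 8 plus strand at 13954724 to 13954895 and sequence 13 minus strand at 14049169 to 14049292, had pooled ratios of 190 and 519. Outside the count table, the regions on sequence 14 minus strand at 632067 to 632095 and sequence 18 plus strand at 2149963 to 2150155 had 4493 and 3417 shoot TPM against 15.8 and 13.5 root TPM. In the 8 regions with counts the libraries of the tissues did not overlap, a distance that the rule largely fixes.

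**Figure D2:**
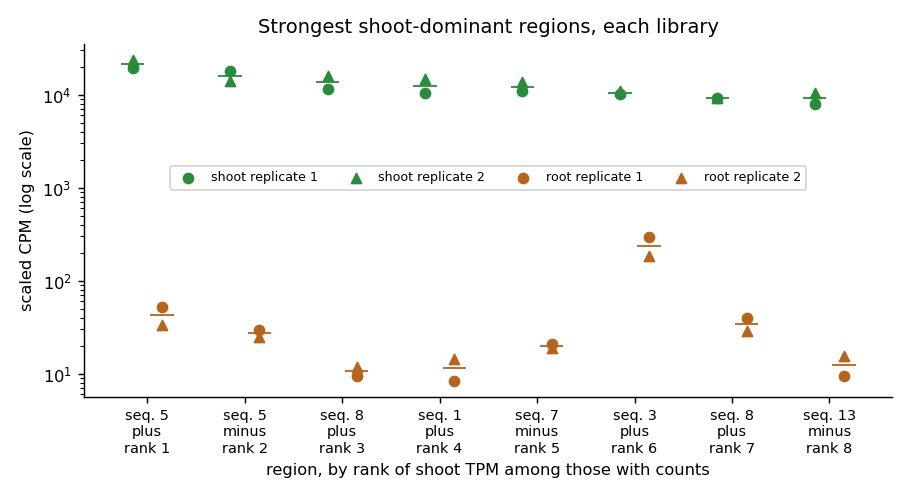
Scaled CPM (vertical axis, log scale) in each of the 4 libraries for the 8 of the 10 strongest shoot-dominant regions that have counts, ordered by shoot TPM. Green marks are shoot libraries, brown marks root libraries, circles replicate 1, triangles replicate 2 and bars the mean. Shoot values lie between 7936 and 23578 CPM and root values between 8.42 and 293 CPM, with the sequence 3 region highest in root.

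Of the 5 regions with the most root tags, most were not among the 10 strongest by shoot level. All 5 were strong in shoot as well, at 1212 to 3860 TPM. The 10 regions with the most root tags held 31.6% of the root TPM of all 622. The first was on sequence 7 minus strand at 43147704 to 43147928, with 5174 and 3893 tags in the shoot libraries and 444 and 276 in the root libraries. The next, on sequence 3 minus strand at 47399833 to 47400060, had 3147 and 2169 shoot tags against 285 and 247 root tags, or 4561 ± 36.2 CPM in shoot and 297 ± 4.63 CPM in root (SD, n = 2 each). The main base there was the same in both tissues and took 57.3% of shoot tags and 59.2% of root tags. On sequence 15 minus strand at 17427426 to 17427637 pooled levels were 1830 TPM in shoot and 140.5 TPM in root. The sequence 3 plus-strand region followed, and the fifth, on sequence 6 plus strand at 7002412 to 7002482, had 2252 and 1585 shoot tags against 180 and 120 root tags. Of these 5, 4 had ratios between 11.02 and 14.1, near the limit of the rule, and the sequence 3 plus-strand region was the exception.

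Most regions had few root tags. In pooled root, 104 regions had 1 tag, 62 had 2, 249 had 3 to 9, 190 had 10 to 99 and 17 had 100 or more. Of the 423 regions with counts, 301 had tags in both root libraries, 62 in root library 1 alone and 60 in root library 2 alone. Those seen in 1 root library had at most 10 root tags. Of the 237 covered regions with 5 or more root tags, 232 had tags in both root libraries. The residual root signal was thus found again in the other root library wherever it was more than a few tags, with 5 exceptions. In a pair of these the root tags were 10 in library 1 and 0 in library 2. One was on the minus strand of sequence 7 at 4169676 to 4169873, with 692 and 630 tags in shoot, and one on the minus strand of sequence 9 at 11990437 to 11990505, with 95 and 80. In the 112 regions with at least 5 tags in each root library, library 1 was higher in 70, with a median log2 ratio of library 1 over library 2 of 0.20, against -0.02 in all 7749 covered regions with that many root tags. The quartiles of this ratio among the 112 were -0.18 and 0.67, so single regions went both ways. The origin of the residual root tags was not tested.

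The highest ratios rested on 1 to 4 root tags and are imprecise. The region on sequence 7 minus strand at 5298581 to 5298689 had 1575 and 851 tags in shoot against 0 and 1 in root, a ratio of 2695 with a 95% exact counting interval of 483 to 106480. At 5455461 to 5455794 on the plus strand of sequence 4 there were 3112 and 2605 tags in shoot against 0 and 4 in root, a ratio of 1591 with an interval of 621 to 5843. The other 3 of the 5 highest ratios, on sequences 12, 15 and 18, were 1568 to 1789, each with 1 root tag. These intervals hold counting error alone, and PCR copies of 1 molecule could be counted more than once.

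At the limits of the rule, regions inside and outside differed little. The 3 regions just inside the ratio limit had ratios of 10.07, 10.1 and 10.2, on sequence 1 minus strand at 58014009, sequence 5 minus strand at 2208169 and sequence 7 minus strand at 7891030. The 3 just outside had 9.99, 9.93 and 9.92, on sequence 8 plus strand at 48010814, sequence 16 minus strand at 32718497 and sequence 12 minus strand at 40162891. The counting interval of the first region inside, 7.34 to 14.1, spans the limit. By shoot level the 3 just inside had 20.03, 20.4 and 20.4 TPM, and the 3 just outside had 19.9, 19.8 and 19.8 TPM. One of these outside lies next to the region with the most root tags, on sequence 7 minus strand at 43147351 to 43147405, with 26 and 35 tags in shoot against 2 and 1 in root.

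The shoot libraries held these regions at like levels. Shoot library 1 over shoot library 2 had a median log2 ratio of -0.11 in the 423 regions, with quartiles of -0.33 and 0.15, against a median of 0.01 in the 2416 other covered regions of 20 shoot TPM or more. The libraries lay within 2-fold of each other in 409 of the 423 regions (96.7%), against 97.4% of those others. The distance between tissues, largely fixed by the rule, was wide in single libraries too. In 410 regions the lower shoot library was at least 10 times the higher root library in CPM, in 11 it was 5 to 10 times, and in 2 it was less than 5 times. Libraries of the tissues overlapped in a single region, on sequence 2 minus strand at 4900390 to 4900396, which had 105 and 1 tags in shoot against 1 and 3 in root. Its place among the 622 rests on shoot library 1. The next by distance between the shoot libraries was on sequence 3 minus strand at 31000875 to 31000882, with 122 and 17 tags in shoot against 9 and 1 in root. In edgeR's quasi-likelihood test over all 7183 covered regions with enough tags, 29.5% were called higher in shoot at an adjusted p under 0.05 (Benjamini-Hochberg), and all 422 of the shoot-dominant regions that entered were among them. As the rule used this contrast, nothing is read from that count. The distances between libraries of the tissues are given for the shoot-dominant regions alone, and nothing is read from them either. The sequence 2 region was the 1 of the 423 that did not pass the filter on low counts.

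The form of the start distribution was not part of the rule. The central 80% of shoot tags spanned a median of 30 bp in the 622 regions, with quartiles of 8 and 61.8 bp. The same span was 41 bp in the 200 regions of at least 20 shoot TPM with no root tag and 31 bp in the 2067 regions whose shoot and root levels lay within 2-fold. The main base took a median of 42.5% of shoot tags in the shoot-dominant regions, 41.7% in those with no root tag and 40.4% in those within 2-fold. Shoot-dominant regions thus had widths and main-base shares close to those of regions used alike in both tissues. The median width was 28 bp in shoot library 1 and 27 bp in shoot library 2 among covered regions. These sets differ in depth, with medians of 246.5, 119 and 148 shoot tags, and regions are not replicates, so no test is given.

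Within the shoot-dominant regions the strongest were the sharpest. The median width was 31.5 bp for regions of 20 to 50 TPM, 32 bp for 50 to 200, 23.5 bp for 200 to 1000 and 10 bp for the 42 regions above 1000 TPM, whose main base took a median of 57.1% of shoot tags. In the regions within 2-fold the width was 36, 30 and 23.5 bp in the first 3 classes, so the narrowing with level was seen there as well. A width of 10 bp or less was found in 207 of the 622 regions (33.3%) and of more than 100 bp in 60 (9.65%). All shoot tags fell on 1 base in 7 regions. The strongest of these 7, on sequence 5 minus strand at 19145575, had 688 and 1161 tags in shoot against 69 and 59 in root, with the region itself 1 base long. Its shoot libraries lay apart, at 1003 CPM in library 1 and 2428 CPM in library 2, against 72.6 and 70.1 CPM in root. At the other end, the region on sequence 11 plus strand at 7487806 to 7488809 spread 2709 and 2006 shoot tags over 1004 bp with 8.06% on its main base, against 3 and 2 root tags. The region on sequence 8 plus strand at 6288333 to 6289159 was 827 bp long, but 61.8% of its shoot tags and 66.7% of its 18 root tags fell on 1 base.

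Which base the root used inside a region was also free of the rule. In most regions with at least 10 root tags the most used base was the same as in shoot. Of 10947 root tags in the 622 regions, 97.2% fell on a base that also had shoot tags and 310 did not. The same regions held 605032 shoot tags, a depth that follows from the rule, so nothing is read from this share. In the 207 regions with at least 10 root tags, the most used base was identical in shoot and root in 150 (72.5%) and within 5 bp in 165 (79.7%). With at least 5 root tags these shares were 65.8% and 75.7% of 354 regions, and regions with fewer root tags were not compared. In the 2067 regions within 2-fold the shares were 80.5% and 86.4%, at a median of 191 root tags, against 19 in the 207 regions.

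To set depth aside, the main base was taken from shoot library 1 and its share of tags was read in the other libraries. In the 47 covered regions with at least 10 tags in every library, this base held a median of 41.3% of tags in shoot library 2, against 33.3% in root library 1 and 37.04% in root library 2. In the 1390 regions within 2-fold the medians were 40.0% in shoot library 2 against 37.4% and 36.8% in the root libraries. The median difference between the mean root share and the share in shoot library 2 was -3.06 percentage points in the 47 regions, with quartiles of -9.83 and 3.22, and -1.60 points in the 1390. The root share was lower in 29 of the 47 and higher in 17. With the base taken from shoot library 2 the median root share of the 47 was 33.3%, against 38.1% with shoot library 1. The median difference from the share in shoot library 1 was then -1.42 percentage points in the 47 regions and -1.46 points in the 1390. The root share was lower in 26 of the 47 and higher in 20. The gap between the 2 sets of regions thus depended on the shoot library that gave the base.

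Where the main bases differed, the root start more often lay upstream. In the 207 regions with at least 10 root tags it lay upstream in 40 and downstream in 17. With at least 5 root tags these numbers were 70 and 51. In the 2067 regions within 2-fold they were 216 and 187, so the upstream side was the more frequent there too. Among the 207 regions the main root start was more than 50 bp upstream of the main shoot start in 14 and more than 50 bp downstream in 4. The main root base took 6.9% to 46.2% of root tags in the 14, and up to 53.3% in the 4. Some of the 14 thus rest on few tags. The lowest shares included 6.9% of 29 root tags on sequence 17 plus strand at 2493528 and 14.3% of 14 on sequence 12 plus strand at 42393685. Regions with tied root bases were not left out, such as the one on sequence 12 plus strand at 3716428. Beyond 50 bp, the regions within 2-fold had 44 upstream and 52 downstream. The mean position of all root tags showed the same side: it lay more than 10 bp upstream of the mean shoot position in 43 of the 207 regions and more than 10 bp downstream in 15, against 129 and 180 of the 2067. The median shift was -1.14 bp in the shoot-dominant regions and 0.05 bp in those within 2-fold. With root library 1 alone and at least 5 tags, the main root start was more than 50 bp upstream in 13 of 165 regions and downstream in 5. With root library 2 alone these numbers were 9 and 4 of 138 regions. These counts compare regions and not libraries, so no p is given, and the limits of 50 and 10 bp were chosen after positions had been seen.

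**Figure D3:**
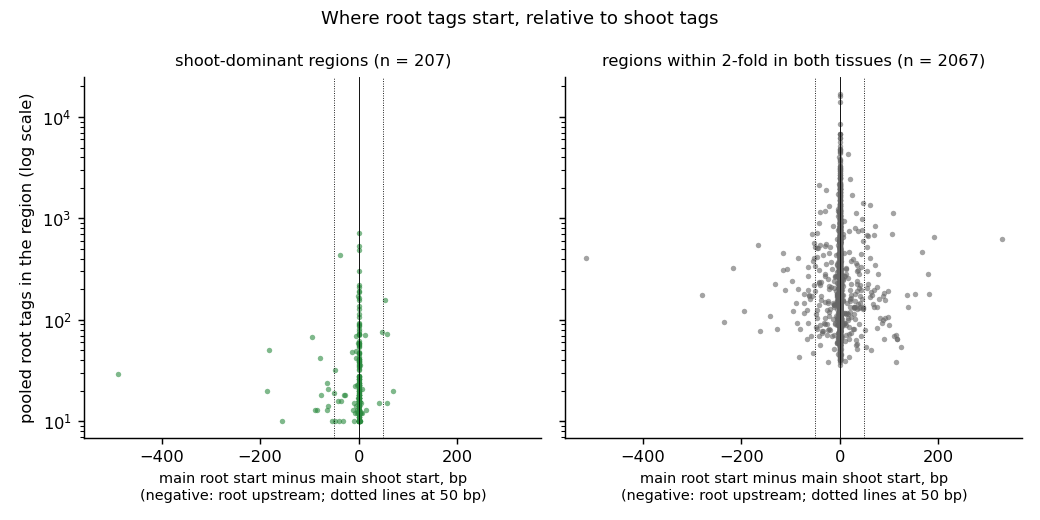
Distance of the main root start from the main shoot start (horizontal axis, bp in the direction of transcription, negative where root lies upstream) against the pooled number of root tags (vertical axis, log scale). The left panel shows the 207 shoot-dominant regions with at least 10 root tags and the right panel the 2067 regions within 2-fold. Dotted lines mark 50 bp, beyond which the left panel has 14 points upstream and 4 downstream.

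Use of single bases was then tested with edgeR's diffSpliceDGE, which compares the tissue difference of each base with that of its whole region. Of 5646 covered regions with at least 2 usable bases, 0.691% were called at a Simes p adjusted over all regions under 0.05. Among the 396 shoot-dominant regions tested, 6 were called (1.52%), and 17 had an unadjusted p under 0.05, against 403 of all 5646. With so few root tags in most regions, a change in the others may not have been detectable. In all 6 called regions the share of tags lying 20 bp or more upstream of the main shoot start was higher in both root libraries than in both shoot libraries. The same was true of 18 of the 33 other regions called, and the reverse of 5. In the rest of the 33 no library had a tag that far upstream, so a difference there could only run downstream or lie within 20 bp. The downstream share of these regions was not compared. Where any library had a tag that far upstream, a higher root share was thus the more frequent result in the other called regions too. As the measure looks upstream only, it does not show which side was the more frequent among the 33. Without either shoot library 1 of the 6 was called, and without either root library 3 were.

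The largest difference in upstream share among the 6 was on sequence 6 minus strand at 5210328 to 5210468 (adjusted p 0.000235, edgeR diffSpliceDGE). In the shoot, starts centred on base 5210372, with 335 and 242 tags, and on bases 5210357 and 5210358. Bases 5210357 and 5210358 together with 5210372 had 1 root tag in all. Root starts lay 95 bp further upstream at base 5210467, with 95 and 65 tags in shoot against 13 and 11 in root, and 45 bp upstream at base 5210417, with 121 and 98 against 10 and 7. The upstream part took 25.5% and 27.3% of tags in the shoot libraries and 86.8% and 96.6% in the root libraries. The shoot to root ratio was therefore small at the upstream bases and large at the downstream ones. The adjusted p was 0.147 without shoot library 1 and 0.0882 without shoot library 2.

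The lowest p belonged to the region with the most root tags, on sequence 7 minus strand at 43147704 to 43147928 (adjusted p 4.38e-09, edgeR diffSpliceDGE). It was called also when any 1 of the 4 libraries was left out, with adjusted p up to 0.000687. Its main base was the same in both tissues, at 38.0% of shoot tags and 41.5% of root tags. A minor start 80 and 82 bp upstream held 5 and 1 tags in the shoot libraries against 12 and 16 in the root libraries at base 43147911, and 1 and 3 against 16 and 10 at base 43147913. The upstream part thus held 0.213% and 0.18% of shoot tags and 9.68% and 11.6% of root tags. Here root exceeded shoot in tag number at these bases, although the shoot to root ratio of the whole region was 13.8, as given by the pooled levels.

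In the sequence 3 plus-strand region that stood apart among the strongest, the shoot used a broad array of bases led by 1491321, with 1033 and 791 tags in shoot against 25 and 6 in root. A separate base 38 bp upstream, 1491283, had 399 and 292 tags in shoot against 81 and 60 in root, or 5.72% and 5.62% of shoot tags against 29.1% and 39.0% of root tags (adjusted p of the region 0.00175, edgeR diffSpliceDGE). Without shoot library 1 or 2 it was not called (0.157 and 0.153). In the minus-strand region of sequence 5 at 2208169 to 2208482 the most used root base lay 182 bp upstream, at 2208482, with 7 and 5 tags in shoot against 8 and 7 in root (adjusted p 0.00292). The main shoot base 2208300 had 39 and 41 tags in shoot against 0 and 2 in root. This region was not called when any 1 of the 4 libraries was left out, with adjusted p from 0.0857 to 0.426.

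The last of the 6 were called with fewer root tags. On sequence 8 plus strand at 10411093 to 10411255, the upstream part held 8.26% and 9.73% of shoot tags against 37.5% and 56.3% of root tags, from 32 and 16 root tags in the region (adjusted p 0.00504, edgeR diffSpliceDGE). Its main shoot base had 1203 and 703 tags in shoot and 6 and 3 in root. In the plus-strand region of sequence 6 at 1549645 to 1550000, it held 5.41% and 5.71% of shoot tags against 66.7% of root tags in both root libraries, from 18 and 6 root tags (adjusted p 0.033). The main shoot base 1549731 had 2163 and 1578 tags in shoot against 1 and 1 in root. Neither was called when any 1 of the 4 libraries was left out. The adjusted p then ran from 0.132 to 0.213 for the sequence 8 region and from 0.0713 to 1.00 for the sequence 6 region. Nor was either called with a minimum of 5 tags per base in place of 10 (0.0527 and 0.0953, edgeR diffSpliceDGE).

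**Figure D4:**
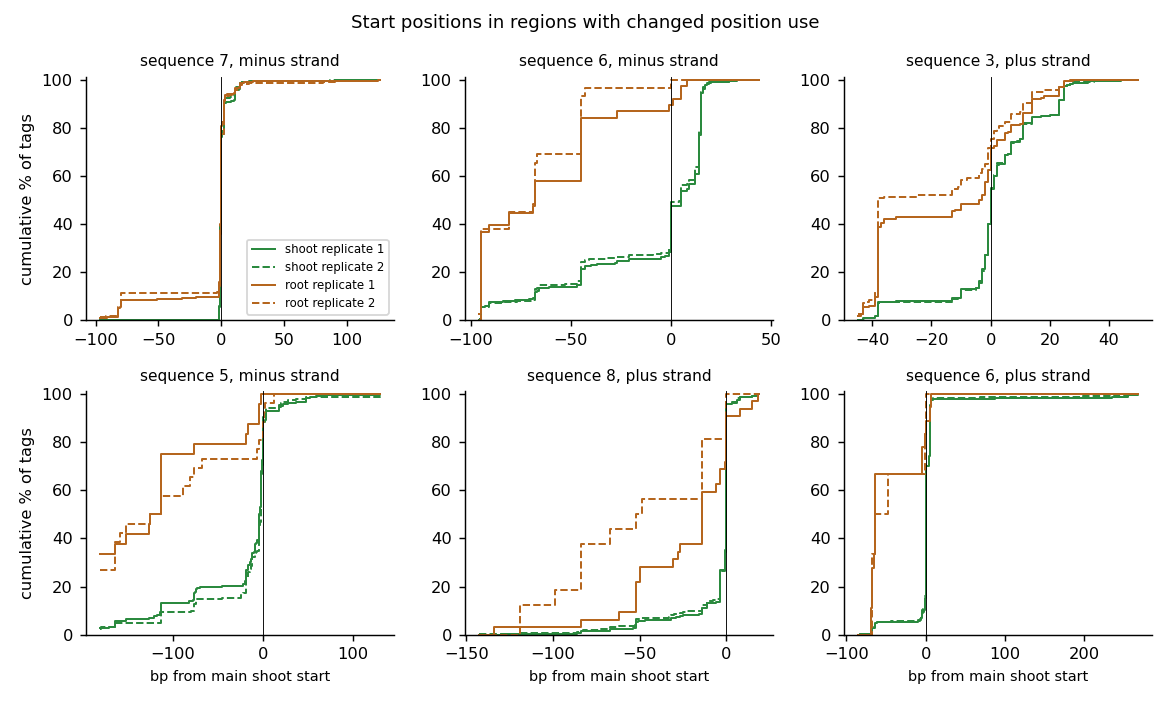
Cumulative share of tags (vertical axis, %) by distance from the main shoot start (horizontal axis, bp in the direction of transcription) in the 6 regions called for changed position use. Green lines are shoot libraries and brown lines root libraries, solid for replicate 1 and dashed for replicate 2. In each panel the brown lines rise further upstream than the green ones, from 9.68% and 11.6% of root tags upstream on sequence 7 to 86.8% and 96.6% on sequence 6 minus strand.

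Regions beside the shoot-dominant ones were found by distance. On the same strand, 109 of the 622 regions (17.5%) had another region within 500 bp, against 8.71% of the regions within 2-fold, at median shoot levels of 79.2 TPM in the shoot-dominant regions and 47.9 TPM in those within 2-fold. These neighbours numbered 119, of which 25 were themselves shoot-dominant. Over all 119 the shoot level was higher in 115 (96.6%), against 36.3% of the neighbours of regions within 2-fold and 38.4% of all merged regions. The other 94 are conditioned on the rule, since a strong neighbour with root tags and a ratio of 10 or more counts among the 622. Of these 94, 90 had the higher level in shoot and 74 had no root tag. In edgeR's quasi-likelihood test 27 of them had enough tags, 23 were called higher in shoot and 1 higher in root, where 29.5% and 23.4% of all tested regions were called. As 19 of the 23 had no root tag and passed the filter on low counts through shoot alone, nothing is read from that share. Of the 8 tested that had root tags, 4 were called higher in shoot. The 94 neighbours were weak, with a median of 4.22 TPM in shoot and 0 in root. They lay downstream in 69 cases, of which 61 had no root tag, and upstream in 25, of which 13 had none. The nearest lay 152 bp away.

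The strongest same-strand neighbours were shoot-dominant regions themselves, led by the one on sequence 12 at 36153266 to 36153474 with 1736 TPM in shoot against 2.57 TPM in root. Among the other 94, the rule leaves few strong neighbours with root tags, and the first 6 by shoot level had none. On sequence 11 plus strand the region at 7487103 to 7487357, 449 bp upstream of the broad region above, had 207 and 186 tags in shoot and 0 and 0 in root (adjusted p 9.17e-07, edgeR's quasi-likelihood test). A further one downstream of the broad region, at 7489220 to 7489439, had 134 and 113 tags in shoot and none in root. On sequence 4 plus strand the region at 1620998 to 1621062 had 172 and 145 tags in shoot against none in root, and it exceeded the shoot-dominant region beside it, at 101 against 43.9 TPM. The next 3 by shoot level were on sequences 2 and 3, at 46.1, 43.3 and 29.2 TPM, again with no root tag.

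By pooled level 4 same-strand neighbours were higher in root, and 1 of them was called. It lies 247 bp upstream of the region on sequence 12 plus strand at 3716428 to 3716538 and spans 3716142 to 3716181. It had 1 and 0 tags in shoot against 16 and 22 in root (adjusted p 0.00118, edgeR's quasi-likelihood test). The shoot-dominant region itself had 257 and 175 tags in shoot against 27 and 15 in root, and its most used root base, tied with another, lay 79 bp upstream of the main shoot base. Beside the region on sequence 1 minus strand at 2822754 to 2822838, the neighbour 273 bp upstream had 36 and 38 tags in shoot against 86 and 45 in root, and it was not called (adjusted p 0.75). The neighbour on sequence 8 minus strand at 412805 to 412827 had 7 and 6 tags in shoot against 16 and 20 in root and was not called (adjusted p 0.172, edgeR's quasi-likelihood test). The fourth, on sequence 5, had 5 root tags and was not tested.

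On the opposite strand the picture depended on the side among neighbours that were not shoot-dominant themselves. Within 1000 bp, 31 of the 622 regions (4.98%) had a region on the other strand, against 3.92% of the regions within 2-fold. Of 30 that were not shoot-dominant themselves, 9 lay upstream, as the partner in a divergent pair does. A neighbour of more than 1 shoot-dominant region was given the side of the nearest, which puts a region on sequence 12 at 36153376, with no root tag, among those that overlap and not among those upstream. The 9 all had root tags, 6 were higher in root, and their medians were 18.5 TPM in shoot and 10.9 TPM in root. These 9 are conditioned on the rule. The 2 neighbours left out as shoot-dominant form a divergent pair on sequence 1, each upstream of the other. They had 644 and 70.3 TPM in shoot against 2.00 and 1.72 TPM in root. Antisense to a shoot-dominant region and overlapping it lay 6 regions, and all 6 had no root tag, with a median of 4.21 TPM in shoot. The other 15 lay downstream, 13 of them higher in shoot and 9 with no root tag. In edgeR's quasi-likelihood test 4 of 10 were called higher in shoot, where 29.5% of all tested regions were. Of these 4, 3 had no root tag and passed the filter through shoot alone, so nothing is read from that share. Of the 7 tested that had root tags, 1 was called higher in shoot, and the 6 that were not called all lay upstream.

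The divergent partner with the highest root level lies 853 bp upstream of the region on sequence 7 plus strand at 47287504 to 47287626. It had 37 and 43 tags in shoot against 103 and 122 in root (adjusted p 0.0533, edgeR's quasi-likelihood test), while the shoot-dominant region had 107 and 61 tags in shoot against 2 and 3 in root. The region on sequence 11 minus strand at 4583941 to 4584116 had a partner 343 bp away with 67 and 41 tags in shoot against 58 and 44 in root (adjusted p 0.0678), beside 310 and 203 tags in shoot against 5 and 5 in root of its own. Among those not shoot-dominant themselves, 1 divergent partner was called higher in shoot, 523 bp from the region on sequence 10 minus strand at 40993204 to 40993286. It had 41 and 18 tags in shoot against 9 and 6 in root, a log2 fold change of 2.54 ± 0.47 (SE, adjusted p 0.00104). Of the antisense regions, the strongest lay inside the strong region on sequence 1 plus strand, on base 47966461, with 29 and 34 tags in shoot and none in root.

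**Figure D5:**
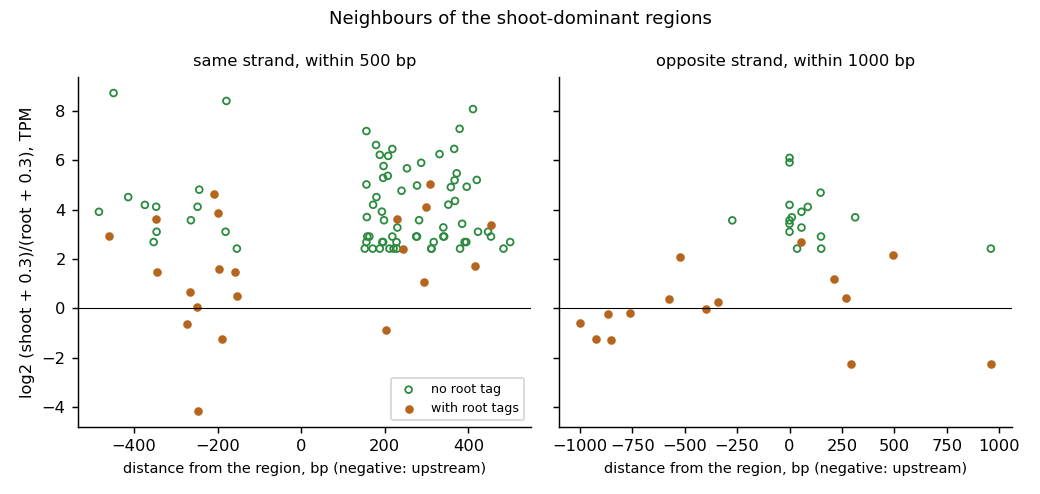
Log2 ratio of shoot over root level, each in TPM plus 0.3 (vertical axis), against distance (horizontal axis, bp, negative where upstream). Points are regions that lie beside the shoot-dominant ones and are not shoot-dominant themselves. The left panel shows neighbours on the same strand within 500 bp and the right panel those on the opposite strand within 1000 bp, with open circles where there was no root tag. A neighbour is drawn once for each shoot-dominant region it lies near. Most points on the left lie above 0, and most upstream points on the right lie near 0 or below.

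Shoot-dominant regions occurred on all 20 sequences. They numbered 309 on plus and 313 on minus strands and 18 to 47 per sequence, which was 1.75% to 3.24% of the regions there, lowest on sequence 20 and highest on sequence 6. Of shoot TPM in these regions, sequence 5 held the most, 20343 TPM in 32 regions. Within gaps of 1000 bp, 37 of the 622 formed 18 strings of 2 or 3, and within gaps of 20000 bp, 81 formed 38 strings, the longest of 4. A string of 4 on the minus strand of sequence 12, from 36153046 to 36158793, held the region at 36153266 to 36153474 with 2664 and 2806 tags in shoot against 4 and 5 in root. Its last region, at 36158537 to 36158793, had 803 and 793 tags in shoot against 0 and 1 in root. The other string of 4, on the minus strand of sequence 5 from 19132642 to 19145575, ended in the single-base region given above. There the regions differed in ratio, at 79.5 and 51.7 for the weaker pair and 53.4 and 15.8 for the stronger.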

How the data were processed

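Start positions were measured by nanoCAGE in 2 shoot and 2 root libraries. The deposited count table holds raw tag counts per base, strand and library, per the file headers; 1 broken last line was left out. The deposited TPM table holds 1 value per tissue from both replicates, per the file headers. All TPM values inverted to whole tags within 0.01, by a power function with exponents of 0.994 in shoot and 1.00 in root. The authors' cluster lists were made per tissue from pooled replicates; only their bounds were used. The aligner, genome build and cluster software remain not given in the sources used here. Near-identical gene copies, common in soybean, could have shared or split tags before deposit.

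Clusters were merged and filtered by the stated rule (Python 3.11.15, pandas 2.3.3). Counts were tested in R 4.3.3 with edgeR 4.0.16 (TMM, filterByExpr, quasi-likelihood, tissue as the only term, Benjamini-Hochberg over all tested regions), with DESeq2 1.42.0 as an alternative. TMM factors were 0.899 and 0.852 in shoot and 1.13 and 1.16 in root. Position use was tested with diffSpliceDGE on bases with at least 10 tags. Both tests were checked on simulated counts. The level test recovered 26.5% of 2-fold and 98% of 4-fold changes, with 10 false calls in 7183 regions. The position test recovered 61.6% of 8-fold changes on the main base, with 2 false calls in 2000 regions. Apart from the planted changes, simulated levels were alike in both tissues, so these rates do not hold for regions with few root tags. Widths are spans of the central 80% of pooled tags. Named regions were the 10 highest by shoot level, the 5 with most root tags, the 5 highest and lowest ratios, the 3 on each side of each limit, the 6 lowest p for position use, the 5 broadest, the single-base ones and those with the strongest neighbours; others were named after their values were seen. The regions, comparisons and lists were chosen with earlier results of these data known. Counts of regions by library, distance, side and root tags were added after the data were seen.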

Additional observations from a re-analysis of the deposited data

How the results depend on the processing

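The number of regions was 621 or 622 at merging distances of 0, 50 and 200 bp and 637 with tags scaled to total tags. It was 840 and 465 at ratios of 5 and 20, and 815 and 410 at shoot limits of 10 and 50 TPM. On the counted sequences the rule gave 372 to 441 regions when 1 library was left out, against 423 with all. Without root library 1 or 2, 71 or 80 of the 423 were lost, 62 or 60 of them because no root tag was left. The count of regions called higher in shoot stayed between 421 and 423 under all alternatives.

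Calls of changed position use numbered 5 to 7 with other tag minimums, the region-level F test or the replicate block, and 1 to 3 when 1 library was left out. With a minimum of 5 tags per base 5 were called, of which 4 were among the 6, and the sequence 8 region and the plus-strand region of sequence 6 were lost (adjusted p 0.0527 and 0.0953, edgeR diffSpliceDGE). The cause was not tested. The median root share on the main shoot base was 34.2% and 47.1% with minimums of 5 and 20 tags per library, and 33.3% with the base taken from shoot library 2. The median difference from the other shoot library was then -1.42 percentage points, against -3.06 with the base from shoot library 1. Median width was 76 bp for the full span and 7 bp for the central 50% of tags. With no filter on low counts, 45 same-strand and 12 opposite-strand neighbours were called higher in shoot, because more were tested. Main root starts over 50 bp upstream numbered 27 with at least 5 root tags and 7 with at least 20, against 7 and 3 downstream. With 1 root library left out and at least 5 tags in the other they numbered 9 to 13.

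The labels give shoot and root the same replicate numbers. Deviations of same-numbered libraries did not go together (correlation -0.05 over tested regions), so the numbers are not taken as pairs. With the replicate block, 422 regions were called higher in shoot, 7 were called for position use, 6 of them the ones called without it, and 23 same-strand and 4 opposite-strand neighbours were called higher in shoot. Depth limits the root side most: regions with 1 or 2 root tags have ratios known only within wide intervals, and which base root uses can be compared in few of them.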
